A study of Rattus norvegicus with 9 samples.

Results

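The receptors CAR (gene Nr1i3) and PXR (Nr1i2), their partner RXR-alpha (Rxra), the liver transcription factor HNF4-alpha (Hnf4a), cytochrome P450 oxidoreductase (Por) and the P450 genes Cyp2b1, Cyp2b2 and Cyp2b3 were followed in rat liver. All probe sets that the array annotation gave to these 8 gene symbols were taken, also where a probe set was shared by several symbols, out of 14863 genes with a probe set on the array. They were 10 probe sets, namely 3 of Hnf4a, 2 of Por, 1 each of Nr1i3, Nr1i2, Rxra and Cyp2b3, and 1 that Cyp2b1 and Cyp2b2 shared, whose signals cannot be told apart. All 10 passed the filter on low signal, which kept the upper 60% of probe sets by mean log2 signal.

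Liver RNA of 9 male Goto-Kakizaki (GK) rats, an inbred strain with spontaneous diabetes, was hybridized to Affymetrix expression arrays, with 1 array for each rat. According to the methods of the study, the animals were bought at 5 weeks of age and held for 7 weeks until they were diabetic. The control rats (control 1–3, undepression in the labels) were then left unstressed, while the others went through 8 weeks of chronic unpredictable mild stress (CUMS), caged alone and given a changing stressor each day, and all the controls therefore carried the diabetic background too. Within the stressed rats the labels separate CUMS 1–3 (Major Depression) from CUMS 4–6 (Mild Depression), and how a rat came under either label was not given in the sources used here. The methods also describe oral repaglinide, an insulin secretagogue, for the rats of both arms before sacrifice, so a drug-free diabetic liver and a non-diabetic liver were not among the groups.

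CAR and PXR are nuclear receptors that sense drugs, bile acids and other foreign or internal molecules in hepatocytes. CAR waits in the cytoplasm in a chaperone complex and moves to the nucleus when it is activated, PXR is opened by direct binding of its ligands, and both pair with RXR-alpha on response elements of genes for drug metabolism. Cyp2b1 and Cyp2b2 are the classic phenobarbital-inducible P450 genes of rat liver and the usual readout of CAR, whereas Cyp2b3 is a relative that phenobarbital does not induce. HNF4-alpha is a master regulator of hepatocyte genes and acts on the genes of both receptors, and the reductase encoded by Por hands electrons from NADPH to all microsomal P450 enzymes.

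In the rat genome (RefSeq annotation of GRCr8), the Cyp2b genes lie side by side on the plus strand of chromosome 1, with Cyp2b1 at chr1:90646098-90669762, Cyp2b2 at chr1:90722243-90736272 and Cyp2b3 at chr1:90780468-90859852. Their starts are 76.1 kb (Cyp2b1 to Cyp2b2) and 58.2 kb (Cyp2b2 to Cyp2b3) apart. The 200 bases that precede the annotated start of each gene are printed here because the shared probe set makes Cyp2b1 and Cyp2b2 a single measurement, and the sequences show how alike those genes are also outside the transcript and where Cyp2b3 departs from them. They run 5′ to 3′ on the plus strand at chr1:90645898-90646097 (Cyp2b1), chr1:90722043-90722242 (Cyp2b2) and chr1:90780268-90780467 (Cyp2b3), and capitals mark the letters TTGCATAA, of the kind bound by C/EBP factors, and ATAAAA, of the TATA box kind.
Cyp2b1: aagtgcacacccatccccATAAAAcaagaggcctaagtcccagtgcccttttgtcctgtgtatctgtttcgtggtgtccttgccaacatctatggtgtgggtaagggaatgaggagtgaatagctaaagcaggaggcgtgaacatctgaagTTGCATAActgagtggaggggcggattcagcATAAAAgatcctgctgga
Cyp2b2: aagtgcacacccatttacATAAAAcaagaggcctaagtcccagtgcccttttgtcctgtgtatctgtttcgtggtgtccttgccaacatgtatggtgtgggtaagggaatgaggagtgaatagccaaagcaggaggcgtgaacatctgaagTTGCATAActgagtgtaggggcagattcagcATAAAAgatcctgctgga
Cyp2b3: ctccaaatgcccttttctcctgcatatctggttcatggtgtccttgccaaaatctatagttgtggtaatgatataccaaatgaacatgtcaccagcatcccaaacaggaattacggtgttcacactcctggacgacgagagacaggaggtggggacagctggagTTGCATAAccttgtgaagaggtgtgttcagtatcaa

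The Cyp2b1 and Cyp2b2 stretches were identical at 193 of 200 bases (96.5%). Cyp2b3 matched Cyp2b1 at 121 of 150 aligned bases (80.7%) and Cyp2b2 at 119 of 150 (79.3%). The letters TTGCATAA were found in all 3 stretches, beginning 49 bases before the start of Cyp2b1 and Cyp2b2 and 36 bases before the start of Cyp2b3, while 0.61% of 33469 promoter windows of the same length held them on either strand. ATAAAA stood 18 and 182 bases before the start in Cyp2b1 and Cyp2b2 and was absent from the Cyp2b3 stretch, and 14.8% of all windows held it. The hexamer AGGTCA, which nuclear receptors bind, and the HNF4A-type letters CAAAGTCCA were in none of the 3 stretches, against 11.4% and 0.293% of all windows. Both strands were searched for each motif and no matches overlapped. Only these exact letters within the 200 bases were searched, so sites farther from the start or with other letters were not looked for. The genes of the regulators lie elsewhere, with Nr1i3 at chr13:86165327-86170362, Nr1i2 at chr11:75965717-76006733, Rxra at chr3:31387892-31474415, Hnf4a at chr3:172606220-172667758 and Por on the minus strand at chr12:26587674-26655612.

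The deposited signals are linear MAS 5.0 intensities, and the differences below are differences in mean log2 signal from limma fitted over 18625 probe sets in all 9 rats, with 95% confidence intervals that are not adjusted for the number of probe sets. Control 3 stood apart, with a median correlation of 0.951 with the other arrays against 0.965 to 0.972 for the rest. The summed signal of 10 stellate cell and fibroblast markers was 32752 in control 3 and between 4783 and 7998 in the other 8 rats, and that of 4 measured bile duct markers 9007 against 648 to 1119, with Krt7 below the array median in all 9. The beta-actin 3′/5′ ratio, a sign of RNA quality, was 5.23 in CUMS 2, 4.96 in CUMS 4 and 2.51 in control 3, and between 3.18 and 3.73 in the other rats. The 7 hepatocyte markers listed were above the median of the array in all 9 rats, and these were bulk livers, in which fewer cells of a type and less RNA per cell cannot be told apart. Values without control 3 are given for some genes in which it was the extreme liver or moved a difference, and not for all of them.

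No member passed an adjusted p under 0.05 in any comparison. By limma, 0 of 18625 probe sets were called (percent called 0) between CUMS 1–3 and control, CUMS 4–6 and control, all 6 CUMS rats and control, or CUMS 1–3 and CUMS 4–6. At an unadjusted p under 0.05, Nr1i3 and the shared Cyp2b1/Cyp2b2 probe set were higher in CUMS 1–3, in CUMS 4–6 and in all CUMS rats than in the controls, which is 2 of 10 probe sets each time, where 2.59%, 2.73% and 3.07% of all probe sets were higher at that level. No member was lower at that level in these comparisons, where 4.17%, 3.55% and 4.86% of all probe sets were. Between CUMS 1–3 and CUMS 4–6, 1 of the 10 was higher at that level in CUMS 1–3, a Por probe set, and 0 were lower, against 1.52% and 1.32% of all. No member lay below all 3 controls in CUMS 1–3, in CUMS 4–6 or in all CUMS rats, as 6.32%, 6.29% and 2.15% of all probe sets did. Of the members, the study named the probe sets of Nr1i3 and Cyp2b1/Cyp2b2 among the changed genes of its stressed rats. They were taken up here with that known, so their values against control are a description and not independent evidence. By qRT-PCR the study also reported higher Nr1i3 and Cyp2b1/Cyp2b2 mRNA in these rats' livers. By Western blot it reported significantly more CAR protein and slightly more Cyp2b1/Cyp2b2 protein. The comparisons with control share the same 3 control rats. Of the 10 probe sets, 7 had a higher mean than the controls in CUMS 1–3, 7 in CUMS 4–6 and 7 in all CUMS rats, where 48.9%, 46.3% and 47.3% of all probe sets did, and 5 had a higher mean in CUMS 1–3 than in CUMS 4–6, where 51.3% did.

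**Figure D1:**
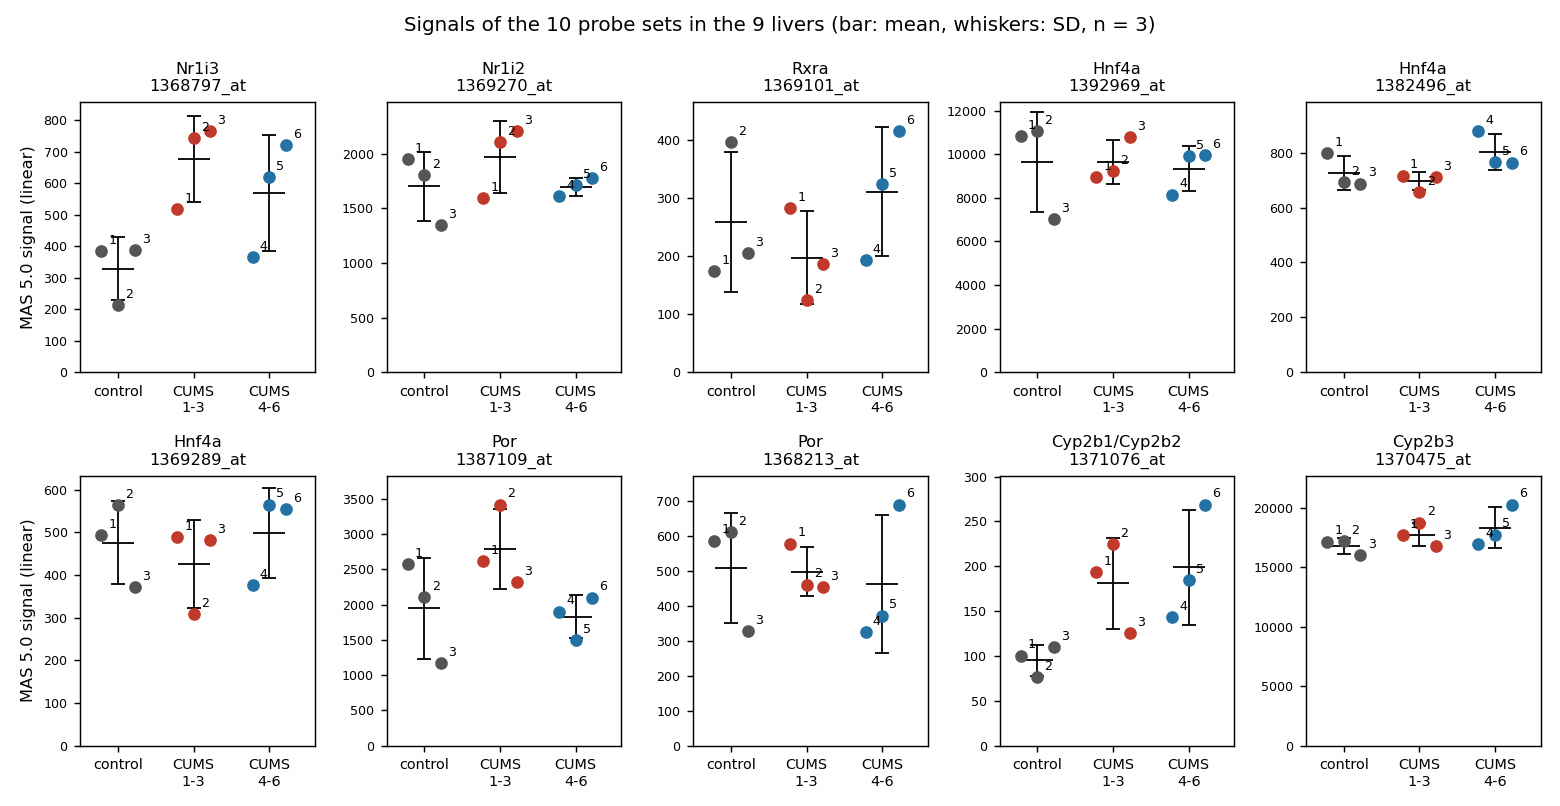
Linear MAS 5.0 signal (vertical axes, from 0) of the 10 probe sets in control 1–3, CUMS 1–3 and CUMS 4–6, with 1 point per rat, the group mean as a bar and the SD as whiskers (n = 3). All 6 CUMS points of Cyp2b1/Cyp2b2 lie above the 3 control points, in Nr1i3 only CUMS 4 lies among the controls, and the groups overlap in Nr1i2, Rxra and Cyp2b3.

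Among the receptors, Nr1i3 had the larger differences. Its probe set (1368797_at) read 384, 212 and 388 in control 1, 2 and 3, then 518, 744 and 766 in CUMS 1, 2 and 3, and 365, 619 and 720 in CUMS 4, 5 and 6. CUMS 1–3 thus lay above all 3 controls, as 5.3% of all probe sets did (5.34% for CUMS 4–6), and of CUMS 4–6 only CUMS 4 lay within their range. The log2 difference was 1.07 (standard error 0.30, confidence interval 0.41 to 1.74, adjusted p = 0.637 from limma) for CUMS 1–3 against control. For CUMS 4–6 against control it was 0.79 (standard error 0.30, confidence interval 0.13 to 1.45, adjusted p = 0.757 from limma). The order of the group means was CUMS 1–3, CUMS 4–6, control, and the neighbours CUMS 1–3 and CUMS 4–6 differed by 0.29 with an interval from −0.37 to 0.95, so neither a higher nor a lower level in CUMS 1–3 could be told. Control 2, the lowest liver, carried part of the difference, since without it the log2 difference was 0.79 for CUMS 1–3 and 0.50 for CUMS 4–6. Without control 3 it was 1.22 and 0.94. Nr1i3 varied by a factor of 3.61 from the lowest to the highest liver.

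Nr1i2, the gene of PXR, stayed in a narrow band. Its signals (1369270_at) were 1950, 1807 and 1349.8 in the controls, 1595, 2112 and 2213 in CUMS 1–3, and 1611, 1712 and 1777 in CUMS 4–6, and every group overlapped the others. The livers of CUMS 4–6 were the tightest, with a coefficient of variation of 4.93%. The log2 difference from control was 0.22 (interval −0.14 to 0.58, adjusted p = 0.838 from limma) in CUMS 1–3 and 0.014 (interval −0.35 to 0.37, adjusted p = 0.994 from limma) in CUMS 4–6. Without control 3 these values became 0.057 and −0.14. Changes in Nr1i2 beyond the upper bounds of 0.58 and 0.37 lay outside these intervals, while smaller changes in either direction were not detectable with 3 rats a group.

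Rxra, whose product is the obligate partner of both receptors, scattered more than it differed. Its signals (1369101_at) were 174, 395 and 205 in the controls, 281, 124 and 185 in CUMS 1–3, and 193, 324 and 415 in CUMS 4–6. The highest liver read 3.34 times the lowest, and each group held both high and low livers. The log2 difference was −0.37 (interval −1.23 to 0.49) in CUMS 1–3 and 0.29 (interval −0.57 to 1.16) in CUMS 4–6 against control, with adjusted p of 0.8998 and 0.926 from limma. Single livers set the size of both values, since with each rat left out in turn they ran from −0.67 (without CUMS 1) to −0.016 (without control 2) in CUMS 1–3 and from 0.051 (without CUMS 6) to 0.65 (without control 2) in CUMS 4–6. CUMS 1–3 against CUMS 4–6 gave −0.67 with an interval of −1.53 to 0.20, so no order of the groups could be set.

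Hnf4a was read by 3 probe sets that did not move alike from rat to rat. The brightest (1392969_at) gave 10837, 11086 and 7022 in the controls, 8940, 9226 and 10794 in CUMS 1–3, and 8157, 9911 and 9953 in CUMS 4–6. Control 3 was the lowest liver there, and the log2 differences from control were 0.026 in CUMS 1–3 and −0.023 in CUMS 4–6, or −0.19 and −0.24 without it. With 1369289_at, which read 493, 563 and 373 in the controls, 489, 308 and 481 in CUMS 1–3 and 377, 565 and 554 in CUMS 4–6, the differences were −0.17 and 0.063, again with all groups overlapping. The last (1382496_at) gave 798, 692 and 687 in the controls, 717, 657 and 712 in CUMS 1–3, and 880.0, 765 and 764 in CUMS 4–6. On this probe set CUMS 1–3 lay below CUMS 4–6 with no overlap, by −0.21 on the log2 scale (interval −0.48 to 0.070, adjusted p = 0.9996 from limma), as 4.37% of all probe sets did. The other Hnf4a probe sets gave −0.23 (1369289_at) and 0.049 (1392969_at) for the same contrast, with overlap. Across the 9 rats the correlation of log2 signals was 0.64 between 1369289_at and 1392969_at, 0.19 between 1369289_at and 1382496_at and −0.012 between 1382496_at and 1392969_at, given as a description over rats that share a group structure.

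For the electron donor, the brighter Por probe set (1387109_at) read 2570.1, 2101 and 1166 in the controls, 2611, 3416 and 2317 in CUMS 1–3, and 1899.8, 1491 and 2097 in CUMS 4–6. Each of CUMS 1–3 lay above each of CUMS 4–6, as 4.75% of all probe sets did, and control 3 was the lowest liver. CUMS 1–3 exceeded CUMS 4–6 by 0.60 on the log2 scale (standard error 0.26, interval 0.019 to 1.18, adjusted p = 0.9996 from limma). The difference from control was 0.57 (interval −0.0093 to 1.15, adjusted p = 0.745 from limma) in CUMS 1–3 and −0.028 (interval −0.61 to 0.55) in CUMS 4–6. Without control 3 the difference for CUMS 1–3 was 0.24. The other Por probe set (1368213_at) read 587, 611 and 327 in the controls, 579, 461 and 455 in CUMS 1–3, and 326, 372 and 691 in CUMS 4–6, with log2 differences from control of 0.016 and −0.16 (−0.27 and −0.45 without control 3, again the lowest control) and overlapping groups throughout. It gave 0.18 (interval −0.49 to 0.85) for CUMS 1–3 against CUMS 4–6. The probe sets correlated at 0.57 across the 9 rats and at 0.37 without control 3, so a difference in Por was seen on 1 of its 2 probe sets only.

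The shared Cyp2b1/Cyp2b2 probe set (1371076_at) was low in every control liver and higher in every stressed liver. It read 100.4, 76.3 and 109.6 in control 1, 2 and 3, then 193, 225 and 125 in CUMS 1, 2 and 3, and 143, 185 and 269 in CUMS 4, 5 and 6. All 6 CUMS rats therefore lay above all 3 controls, as 1.52% of all probe sets did. The control values were each below the median signal of their array, which lay between 107 and 133 over the 9 arrays, so the exact ratio is uncertain. The log2 difference from control was 0.90 (standard error 0.30, confidence interval 0.23 to 1.57, adjusted p = 0.722 from limma) in CUMS 1–3. In CUMS 4–6 it was 1.03 (standard error 0.30, confidence interval 0.36 to 1.69, adjusted p = 0.744 from limma). All 6 CUMS rats together gave 0.96 (standard error 0.26, confidence interval 0.39 to 1.54, adjusted p = 0.467 from limma). With 50 added to each signal, which holds back differences of dim probe sets, the values were 0.65 in CUMS 1–3 and 0.75 in CUMS 4–6. The order of the group means was CUMS 4–6, CUMS 1–3, control, and CUMS 1–3 against CUMS 4–6 came to −0.13 with an interval of −0.80 to 0.54. Without control 3 the differences from control were 1.01 and 1.14.

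Cyp2b3, next to them on the chromosome, gave a far flatter picture. Its signals (1370475_at) were 17169.6, 17190.2 and 16016 in the controls, 17719, 18755 and 16775 in CUMS 1–3, and 16948, 17752 and 20280.1 in CUMS 4–6. The CUMS groups overlapped the controls, although 4 of the 6 CUMS livers read above all 3 controls. The log2 difference was 0.079 (interval −0.13 to 0.29) in CUMS 1–3 and 0.12 (interval −0.084 to 0.33) in CUMS 4–6, with adjusted p of 0.912 and 0.853 from limma. The highest liver read 1.27 times the lowest, against 3.52 times for the Cyp2b1/Cyp2b2 probe set, each as a ratio within its own probe set. A log2 difference of Cyp2b3 above 0.33 lay outside both intervals. Whether the Cyp2b1/Cyp2b2 and Cyp2b3 differences differ from each other was not tested, since different probes respond over different ranges of signal. Of the other Cyp2b genes listed, Cyp2b12 and Cyp2b21 had probe sets of their own, and both fell under the filter.

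**Figure D2:**
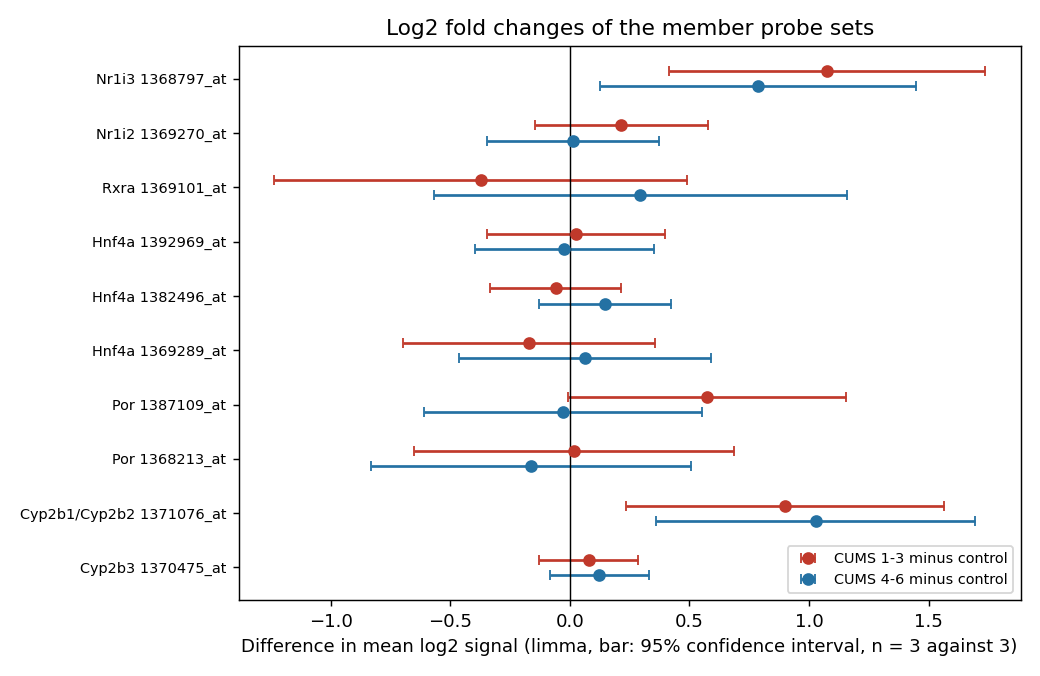
Difference in mean log2 signal from the controls (horizontal axis) of the 10 probe sets, for CUMS 1–3 and CUMS 4–6 (n = 3 rats against 3), with bars for the 95% confidence interval from limma. The intervals of Nr1i3 and Cyp2b1/Cyp2b2 lie above 0 for both CUMS groups, with differences of 0.79 to 1.07, and those of the other 8 probe sets include 0.

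From rat to rat, the Cyp2b1/Cyp2b2 signal went along with those of Nr1i3 and Cyp2b3. Over the 9 livers the log2 signals of Nr1i3 and Cyp2b1/Cyp2b2 had a Pearson r of 0.79 (exact permutation p = 0.0107, two-sided) and a Spearman rho of 0.63 (exact permutation p = 0.0760, two-sided). Adjusted over the 17 pairs of these probe sets that were computed, the p-values were 0.0910 for r and 0.646 for rho. Both probe sets were higher in the CUMS rats and were taken up with that known, and these p-values, which exchange rats across groups, include that common difference. After removal of the group means, r was 0.56 (exact permutation within groups p = 0.208, adjusted 0.972, two-sided). With the livers farthest from the median left out, r was 0.90 by Nr1i3 (without control 2 and CUMS 3) and 0.58 by Cyp2b1/Cyp2b2 (without control 2 and CUMS 6). CUMS 3 departed from the relation, with the highest Nr1i3 signal of the 9 livers (766) and the lowest Cyp2b1/Cyp2b2 signal of the CUMS rats (125). CUMS 4 did so the other way, with Nr1i3 in the range of the controls (365) and Cyp2b1/Cyp2b2 above all of them (143). Cyp2b1/Cyp2b2 and Cyp2b3 had an r of 0.78 (exact permutation p = 0.00969, adjusted 0.0910, two-sided) and a rho of 0.72 (exact permutation p = 0.0369, adjusted 0.627, two-sided). Here r within groups was 0.72 (exact permutation within groups p = 0.111, adjusted 0.972, two-sided), and r without control 2 and CUMS 6 was 0.84. CUMS 6 was the highest liver for both, and its summed signal of 8 measured pericentral hepatocyte markers was the highest too, at 75843 against 44364 to 59270 in the other 8 rats. Cyp1a2 read 30406 there against 9613.5 to 15981, and Cyp2e1 and Slc1a2 were also highest in CUMS 6. Glul (5786) and Oat (8766) were not, with 5907 in control 3 and 12043 in CUMS 3, nor were Axin2 and Tbx3. Lgr5 was below the array median on all arrays. The part of that zone in the Cyp2b values was not tested. Without CUMS 6, the log2 difference of Cyp2b1/Cyp2b2 in CUMS 4–6 was 0.79. Nr1i2, Rxra, Hnf4a and Por had r between −0.24 and 0.40 with Nr1i3 and between −0.14 and 0.26 with Cyp2b1/Cyp2b2, and an adjusted p of 0.994 for each r.

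**Figure D3:**
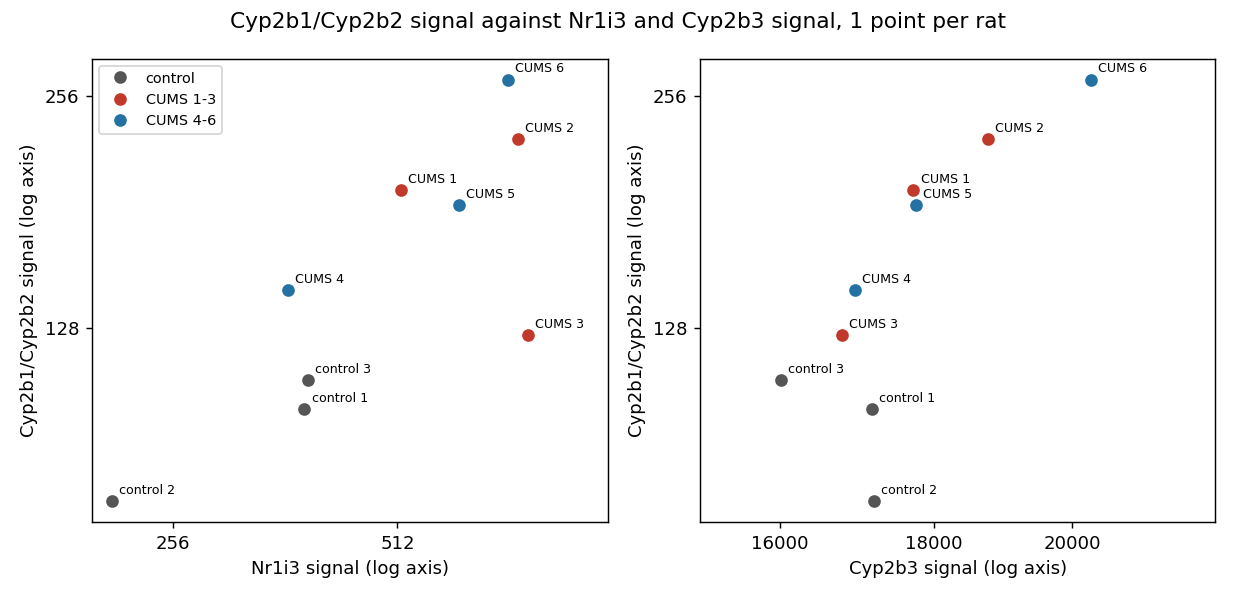
Signal of the Cyp2b1/Cyp2b2 probe set (vertical axes, log scale) against that of Nr1i3 (left) and Cyp2b3 (right), with 1 point per rat in the colours of the 3 groups. The controls lie at the lower left and CUMS 6 holds the highest Cyp2b1/Cyp2b2 and Cyp2b3 signals, with r of 0.79 (left) and 0.78 (right) over the 9 rats.

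The genes whose log2 signals followed Nr1i3 most closely over the 9 rats were Hsdl2, a peroxisomal dehydrogenase-like protein (r = 0.97), Creb3l3, a membrane-bound transcription factor of liver (r = 0.96), Camk2n1, an inhibitor of CaM kinase II (r = 0.96), Acaa2, a mitochondrial thiolase (r = 0.96), and Ehhadh, a peroxisomal enzyme of fatty acid oxidation (r = 0.96). Of 18624 other probe sets, 26 (0.14%) reached an r of 0.9 with Nr1i3. For the Cyp2b1/Cyp2b2 probe set the closest were Mrpl51, a protein of the mitochondrial ribosome (r = 0.95), LOC102546572 (r = 0.95), Ppp6r1, a subunit of protein phosphatase 6 (r = 0.94), Iglc1, an immunoglobulin light chain gene (r = 0.94), and Zfand6, a zinc finger protein (r = 0.93), and 20 probe sets (0.107%) reached 0.9. These genes were picked for their r out of the whole array, so the values are a description. The lists of the closest 5 genes had no name in common.

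Around the receptors, lists of genes from general knowledge were read out with 1 probe set per gene, and 0 genes of any list passed an adjusted p under 0.05. Unlike for the members, probe sets shared by several symbols were not used for the lists, and some listed names were aliases of the same gene. Of 27 listed names of CAR and PXR targets other than Cyp2b genes, 19 had a probe set of their own and 17 passed the filter. Gsta5 and Ugt1a1, which the study reported as higher in its stressed rats, were listed but had no value here. Of the 17, 10 had a higher mean in CUMS 1–3 (median log2 difference 0.055) and 14 in CUMS 4–6 (median 0.28). The medians of all probe sets were −0.0060 and −0.021. At an unadjusted p under 0.05, 6 were higher and 2 lower in CUMS 1–3, and 6 were higher and 1 lower in CUMS 4–6, where 2.59% and 4.17% (CUMS 1–3) and 2.73% and 3.55% (CUMS 4–6) of all probe sets were. The study had named some of these targets as changed in these livers. Among them were Aldh1a1, Ugt2b1, Cyp3a18, Sult2a2 and the probe set of Slco1a4 (as Slco1a2), so the counts are not independent evidence of a direction. Aldh1a1, a retinaldehyde dehydrogenase, read 3654, 2435 and 3803 in the controls, 5791, 8233 and 6601 in CUMS 1–3, and 6298, 9777 and 8595 in CUMS 4–6. Its log2 difference was 1.20 over all CUMS rats (standard error 0.18, adjusted p = 0.147 from limma). The glucuronidating enzyme gene Ugt2b1 read 5384, 4832 and 3717 in the controls, 6904, 7288 and 8049 in CUMS 1–3, and 7579, 7844 and 10476 in CUMS 4–6, a difference of 0.79 (adjusted p = 0.290 from limma). The uptake transporter gene Slco1a4 differed by 0.74 (adjusted p = 0.290 from limma), from 7689 to 11124 in the controls and from 11665 to 16647 in the CUMS rats.

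These 3 and, chosen after their values were seen, Cyp3a18 and Cyp2a1 were the 5 of 17 targets in which all 6 CUMS rats lay above all 3 controls, where 1.52% of all probe sets did. Cyp3a18, a steroid and drug hydroxylase of the Cyp3a family, differed by 0.56 in CUMS 1–3 and 0.64 in CUMS 4–6, and Cyp2a1, a testosterone hydroxylase, by 0.22 and 0.28. Sult2a2, a sulfotransferase of steroids and bile acids, differed by 1.44 and 0.51, the carboxylesterase gene Ces2c by 0.71 and 0.68, and Abcb1a, an exporter of drugs, by 0.68 and 0.34, with at least 1 CUMS liver not above all 3 controls for each. Sult2a2 read 74.3, 59.3 and 70.2 in the controls and 56.5 in CUMS 4, each below the array median, so its exact ratio is uncertain. Abcc3, a basolateral exporter, was lower in mean. It read 125, 128 and 313 in the controls, with control 3 the highest of all livers, and 24.6 to 128 in the CUMS rats. The log2 differences were −1.01 and −1.73, or −0.58 and −1.29 without control 3. Every CUMS liver except CUMS 3 read below its array median for Abcc3, so the exact ratio is uncertain. Gadd45b, a stress-inducible gene, differed by −1.14 in CUMS 1–3 and −0.26 in CUMS 4–6. The PXR target Cyp3a2 had −0.24 in CUMS 1–3 and 0.26 in CUMS 4–6. CUMS 3 read 8119 for it, against 21778 and 24582 in CUMS 1 and CUMS 2, and without CUMS 3 the difference turned to 0.27. Cyp3a9, of the same family, had −0.68 in CUMS 1–3 and −0.20 in CUMS 4–6, and here CUMS 3 read 4071 against 1605 and 1488 in CUMS 1 and CUMS 2. Abcc2, Alas1 and Cyp2c7 had differences between −0.24 and 0.17 in both groups. These further genes were also chosen after their values were seen.

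Partners and co-regulators of CAR and PXR (20 of 24 tested) went both ways, with 13 higher in mean in CUMS 1–3 and 8 in CUMS 4–6 and medians of 0.049 and −0.056. Foxo1, an insulin-restrained transcription factor that also acts as a coactivator of CAR, read 71.8, 106 and 123 in the controls, 184, 141 and 284 in CUMS 1–3, and 43.3, 152 and 176 in CUMS 4–6. Its log2 difference in CUMS 1–3 was 0.99 (adjusted p = 0.749 from limma). Each control and CUMS 4 read below the array median for Foxo1, so its exact ratio is uncertain. The pioneer factor gene Foxa1 had −0.28 and the corepressor gene Ncor1 0.51 in CUMS 1–3 (adjusted p = 0.769 and 0.772 from limma). Over all CUMS rats the chaperone gene Hsp90ab1, whose product belongs to the complex that holds CAR in the cytoplasm, had 0.16 and the liver factor gene Cebpb −0.20 (adjusted p = 0.666 and 0.788 from limma). Other nuclear receptors that pair with RXR (11 of 12 tested) had higher means in 1 gene for CUMS 1–3 and in 3 for CUMS 4–6, with medians of −0.082 and −0.10. The oxysterol receptor gene Nr1h2 had −0.24, the retinoic acid receptor gene Rarg −0.25 and the adipogenic receptor gene Pparg −0.32 in CUMS 1–3, and Ppard, a fatty acid sensor, −0.12 over all CUMS rats, with adjusted p from 0.766 to 0.916 from limma.

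Known targets of HNF4-alpha (19 of 25 tested) had higher means in 8 genes for CUMS 1–3 and in 18 for CUMS 4–6, with medians of −0.014 and 0.12. Of all probe sets, 48.9% and 46.3% had a higher mean. The counts of higher means among the targets depended on the scaling and on control 3, being 11 and 13 with quantile normalization and 5 and 12 without control 3. At an unadjusted p under 0.05, 1 target was higher in CUMS 1–3 and 4 in CUMS 4–6, against 2.59% and 2.73% of all probe sets. At that level 0 were lower, against 4.17% and 3.55%. Above all 3 controls lay 1 target in CUMS 1–3 and 7 in CUMS 4–6, against 5.3% and 5.34% of all. The summed hepatocyte markers were 164630 to 183840 in CUMS 4–6, 137924 to 166711 in the controls and 138019 to 162234 in CUMS 1–3. Their part in the counts for CUMS 4–6 was not tested. Mttp, which loads lipid onto apolipoprotein B, read 5573, 5874 and 5958 in the controls, 8305, 8856 and 8354 in CUMS 1–3 and 6819, 6916 and 7723 in CUMS 4–6. All CUMS rats lay above the controls for Mttp, as for 1.52% of all probe sets, and it was the only 1 of the 19 targets with this. Its log2 difference was 0.55 for CUMS 1–3 against control (standard error 0.088, adjusted p = 0.282 by limma). Cyp27a1, a sterol hydroxylase, had 0.30 and Otc, a urea cycle enzyme, 0.17 over all CUMS rats (adjusted p = 0.595 and 0.660 from limma), and Ttr, the plasma carrier of thyroxine, −0.13 in CUMS 1–3 (adjusted p = 0.858 from limma). Among genes of microsomal electron transfer and partners of the reductase (9 of 11 tested), 6 had higher means in CUMS 1–3 and 7 in CUMS 4–6, with medians of 0.046 and 0.15. Over all CUMS rats Hmox1, the heme oxygenase that draws electrons from the reductase, had −0.97, the cytochrome b5 gene Cyb5b 0.23 and its reductase gene Cyb5r3 0.25 (adjusted p = 0.637, 0.728 and 0.662 from limma). Hmox1 read 4604 in control 3 against 1338 and 1909 in the other controls, and without control 3 its difference was −0.46. Control 3 was also the lowest liver for Cyb5b and Cyb5r3, whose differences without it were 0.11 and 0.12. Sqle, the squalene epoxidase, had 0.49 in CUMS 1–3 (adjusted p = 0.830 from limma).

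**Figure D4:**
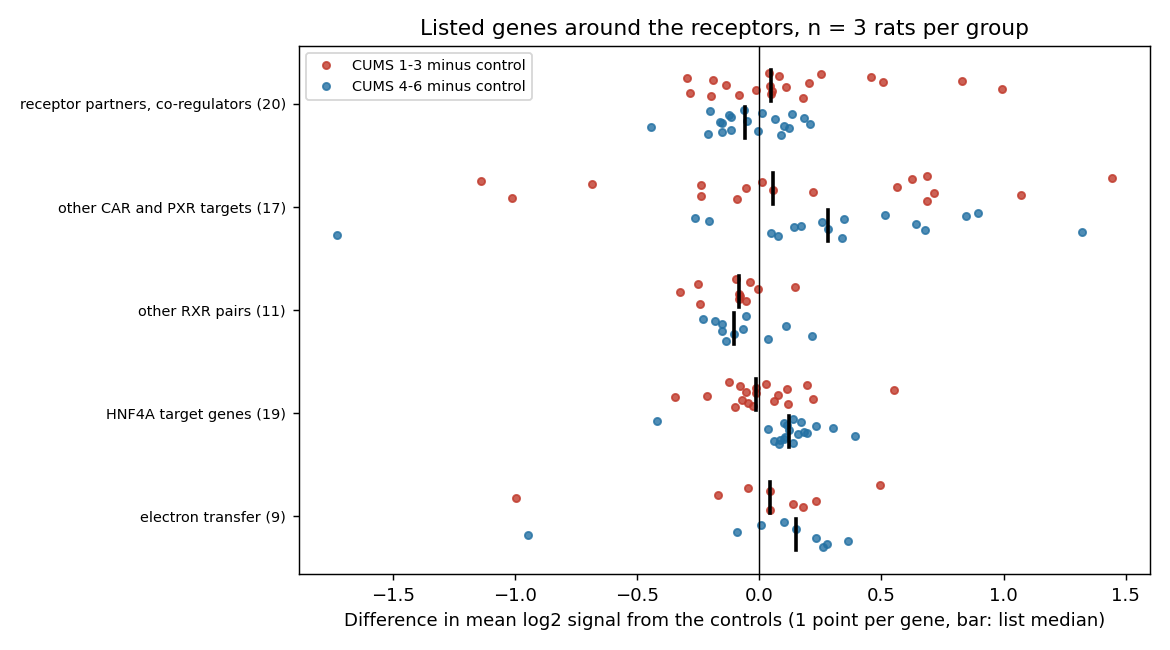
Difference in mean log2 signal from the controls (horizontal axis) for the genes of the 5 lists, with 1 point per gene, separate rows of points for CUMS 1–3 and CUMS 4–6 and a bar at the list median. The targets of CAR and PXR have the highest median in CUMS 4–6, at 0.28, and the widest range, from −1.73 to 1.44 over both groups.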

How the data were processed

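Liver RNA was extracted with TRIzol, labelled with the 3′ IVT Express kit and hybridized by the authors to Affymetrix rat arrays, 1 per rat. The deposited values are linear signal intensities made by the authors with MAS 5.0 and scaled to a trimmed mean of 500.0 on each array. The labels name separate rats as samples, and the groups were taken from the symptom label. The probe annotation gave 1 symbol to 20826 probe sets, several to 436 and none to 9780, and 20758 of the first kind were updated through their RefSeq gene ID. After removal of 57 control probe sets, 586 signals under 1 were raised to 1 and values were put on the log2 scale. Of the remaining 31042 probe sets, the 18625 in the upper 60% by mean log2 signal (at least 6.07) were kept. The 3 groups were fitted together in R 4.3.3 with limma 3.58.1 (moderated variances that follow the signal, 6 residual degrees of freedom, checked on simulated data), with Benjamini-Hochberg adjustment over all kept probe sets and a threshold of 0.05. Correlations were tested by exact permutation of the 9 rats, over all and within groups, with numpy 2.4.6.

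The genes, lists and comparisons were chosen with earlier results of these data known. Named were all probe sets of the 8 genes, the 5 genes most correlated with each of Nr1i3 and Cyp2b1/Cyp2b2, and in each list up to 3 genes with the smallest p in CUMS 1–3 and up to 3 in all CUMS rats. Promoter sequences came from RefSeq tables of GRCr8 and were aligned with Biopython 1.88. The alternatives were quantile normalization, median centring, log2(signal + 50), no filter, the upper 40% of probe sets only, a fit of the groups compared only, a constant prior variance, array weights, a block for the replicate number, the analysis of variance named in the study's methods, and leaving out each rat in turn. The authors' detection calls were not used here. The number of arrays limits the precision.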

Additional observations from a re-analysis of the deposited data

Results flagged for a closer look

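The Hnf4a probe set 1382496_at was on opposite sides of the control mean in the CUMS groups. It read 717, 657 and 712 in CUMS 1–3, all below the control mean of 726, and 880.0, 765 and 764 in CUMS 4–6, all above it. The log2 difference between CUMS 1–3 and CUMS 4–6 was −0.21 (interval −0.48 to 0.070, adjusted p = 0.9996 from limma), and it stayed between −0.24 and −0.14 when each rat was left out in turn. Over the 6 CUMS rats, no liver stood apart from the others for any of the 10 probe sets. The widest gap to the nearest liver, relative to the range, was 0.517, for CUMS 4 on this probe set and below the 95% critical value of Dixon's test for that many samples.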

How the results depend on the processing

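For the members, 33 log2 differences were recomputed under up to 19 other settings, which gave 597 values. Of these 565 kept their direction, 32 turned it and 0 were called, with adjusted p down to 0.344. The differences of Nr1i3 and Cyp2b1/Cyp2b2 from control kept their direction in every setting in which they were measured. The Cyp2b1/Cyp2b2 probe set fell under the filter that kept only the upper 40%, which gave it no value. The number of called probe sets was 0 for each comparison, except that the analysis of variance named in the methods called 1 in CUMS 1–3 against control, and median centring called 1 in CUMS 4–6 and 1 in all CUMS rats against control. Median centring also moved the share of probe sets with a higher mean in CUMS 4–6 from 46.3% to 56.5%, and in all CUMS rats from 47.3% to 57.7%. Some of the differences that turned were not near 0, such as Nr1i3 in CUMS 1–3 against CUMS 4–6, at 0.29 with all rats. With array weights Por (1368213_at) and Hnf4a (1392969_at) in CUMS 1–3 came to −0.073 and −0.092, Nr1i2 in CUMS 4–6 to −0.043, and Hnf4a (1392969_at) in CUMS 1–3 against CUMS 4–6 to −0.014. With median centring Por (1387109_at) and Hnf4a (1392969_at) in CUMS 4–6 came to 0.029 and 0.035, and with quantile normalization Cyp2b3 in CUMS 1–3 against CUMS 4–6 came to 0.068. The cause was not tested. With each rat left out in turn, the ranges for CUMS 1–3 against control were −0.27 to 0.18 (Por 1368213_at), −0.34 to 0.048 (Hnf4a 1369289_at), −0.096 to 0.011 (Hnf4a 1382496_at) and −0.19 to 0.14 (Hnf4a 1392969_at). For CUMS 4–6 against control they were −0.49 to 0.051 (Por 1368213_at), −0.36 to 0.21 (Por 1387109_at), −0.14 to 0.12 (Nr1i2), −0.10 to 0.25 (Hnf4a 1369289_at) and −0.24 to 0.092 (Hnf4a 1392969_at). For CUMS 1–3 against CUMS 4–6 they were −0.0044 to 0.49 (Nr1i3), −0.34 to 0.12 (Cyp2b1/Cyp2b2), −0.098 to 0.032 (Cyp2b3), −0.046 to 0.10 (Hnf4a 1392969_at) and −0.034 to 0.51 (Por 1368213_at). The number of HNF4-alpha targets with a higher mean in CUMS 1–3, 8 of 19, ranged from 5 to 13 when a rat was left out, being 5 without control 3 or CUMS 2 and 13 without control 1 or CUMS 3. That in CUMS 4–6, 18 of 19, ranged from 12 to 18, and quantile normalization gave 11 (CUMS 1–3) and 13 (CUMS 4–6). That of the other receptors that pair with RXR went from 1 to 4 of 11. For the listed genes, leaving out each rat was added after seeing the data. It gave −1.35 to −0.46 for Hmox1 and −1.61 to −0.93 for Abcc3 in all CUMS rats against control. For Cyp3a2 it gave −0.53 to 0.27 (CUMS 1–3) and −0.19 to 0.26 (all CUMS rats). Other named values also hung on single rats. In CUMS 1–3 against control the ranges were −0.60 to 0.083 (Pparg), 0.11 to 0.77 (Sqle) and 0.21 to 0.74 (Ncor1). For Cebpb in all CUMS rats the range was −0.41 to 0.012. With the replicate number as a block, CUMS 1–3 against control again gave 0 called, and 1361 in place of 1259 at an unadjusted p under 0.05. The labels give same-numbered rats no link beyond that number. After removal of the group means, the correlations of same-numbered control and CUMS 1–3 rats were 0.003, −0.049 and 0.14. Differently numbered rats were not set beside them, so whether same-numbered rats shared a day or batch was not tested.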
